A study of Mus musculus with 4 samples.

Results

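The clustered histone genes are the genes for core and linker histones that lie side by side in the Hist1, Hist2, Hist3 and Hist4 clusters of the mouse genome. They were taken as every gene whose symbol begins with Hist1h, Hist2h, Hist3h or Hist4h, after 3 pseudogenes had been left out, which gave 67 of the 55422 gene IDs in the deposited matrices. The members comprised 6 genes for linker histone H1, 18 for H2A, 18 for H2B, 12 for H3 and 13 for H4. Of these, 54 lie in Hist1 on chromosome 13, 10 in Hist2 on chromosome 3, 2 in Hist3 on chromosome 11 and 1 in Hist4 on chromosome 6. The study sequenced RNA of single nuclei from the hippocampus of adult mice, in 2 Control libraries (genotype Kat6a-f/f, with both copies of Kat6a flanked by loxP sites) and 2 Kat6a-cKO libraries (the same floxed alleles with NEX-cre). All 4 libraries therefore carry the floxed alleles, and no group with NEX-cre alone was analysed here. NEX-cre is a Cre recombinase placed at Neurod6, whose expression in the forebrain marks excitatory neurons. Deletion is thus aimed at these cells and not at glia or inhibitory neurons. Kat6a encodes a histone acetyltransferase. Strain, sex and exact age are not given in the sources used here, nor is it stated whether a library came from 1 animal or from a pool, so every p-value below measures only the spread between these libraries. The group was selected on the genotype differences of Hist1h4h and Hist1h4d in dentate granule nuclei, so the genotype values of that class are a description.

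Histone H2A, H2B, H3 and H4 form the octamer around which DNA is wrapped, and H1 binds the linker DNA between octamers. The clustered genes are the replication-dependent histone genes: they are transcribed mainly while DNA is copied, and their mRNAs usually end just behind a short stem loop instead of in a poly(A) tail. A minority of them also make polyadenylated mRNAs, which are found in cells that have stopped dividing, such as neurons. The single-nucleus kit named in the labels primes on poly(A) in its usual form, so mRNAs that end at the stem loop are captured poorly, and the levels below do not stand for all histone mRNA.

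The members were counted very unequally. Over all nuclei, 60 members had at least 1 UMI (unique molecular identifier, a tag that marks 1 captured RNA molecule), 7 had none and 23 had at least 100 UMIs. The 67 members together had 46307 UMIs, of which the 5 most counted held 75.2% and the 15 most counted, which are named below, 94.4%. Hist1h2be had 11402 UMIs, Hist3h2ba 9483, Hist1h2bc 6118, Hist1h1c 4918 and Hist1h4d 2921. The first 3 encode H2B, Hist1h1c encodes a linker histone and Hist1h4d encodes H4. Since mRNAs that end at the stem loop are captured poorly, these totals rank genes by captured molecules and not by transcripts per cell.

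A stem loop was searched for behind the stop codon of each annotated transcript, because the end of the mRNA decides how it can be captured. It was found in 45 of the 67 members. Many of the others, such as Hist1h1b, Hist1h3i and Hist1h4k, have an annotated transcript that ends at the stop codon. No loop could be found in these, so the count does not show that the genes lack one. The stretches below show it for 7 of the members that the results turn on, 5′ to 3′ on the coding strand, with the stem and loop in capitals. They were read from the GENCODE M21 transcripts.
Hist1h4d: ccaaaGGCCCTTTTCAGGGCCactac
Hist1h4h: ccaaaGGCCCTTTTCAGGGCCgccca
Hist1h4c: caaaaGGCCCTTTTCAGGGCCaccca
Hist1h4i: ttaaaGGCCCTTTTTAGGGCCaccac
Hist1h2be: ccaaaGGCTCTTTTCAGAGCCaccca
Hist3h2ba: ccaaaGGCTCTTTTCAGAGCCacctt
Hist1h1c: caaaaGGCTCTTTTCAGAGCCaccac

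The 4 H4 genes share 1 form of the stem, and the H2B and H1 genes shown share another. The loop begins 36 bases after the stop codon in Hist1h4d and 24 in Hist1h1c. The annotated transcript does not end there: it goes on for 770 bases behind the loop in Hist1h4d, 454 in Hist1h4c, 330 in Hist1h4i, 1861 in Hist1h2be, 840 in Hist1h1c and 169 in Hist3h2ba. In Hist1h4h it goes on for only 46 bases. Hist1h2bc and Hist2h2be have no such loop behind the stop codon of their annotated transcript. Members with both a stem loop and a poly(A) signal near the transcript end numbered 13 and held 66.3% of all member UMIs, while the 32 with a stem loop and no such signal held 16.7%. Likewise, the 18 members whose longest transcript exceeded 1000 bases held 67.7% of the UMIs.

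In GRCm38 coordinates, Hist1h4d lies at chr13:23581598-23582735 on the plus strand, Hist1h4h at chr13:23531050-23531519 on the plus strand, Hist1h4c at chr13:23697635-23698454 on the minus strand and Hist1h4i at chr13:22040636-22041362 on the minus strand. Hist1h2bc spans chr13:23684199-23692908 on the plus strand in 2 exons, and Hist3h2ba lies at chr11:58948920-58949533 on the plus strand. Hist1h2be spans chr13:23583670-23621124 on the minus strand in 5 exons. That span overlaps Hist1h1e on the same strand, so reads of the overlap may have been counted for either gene. Some members share sequence with other genes, members or not, on either strand: 84.4% of the 31-base words of Hist1h3e and 93.4% of those of Hist1h2ap occur in another gene, against 14.7% for Hist1h4d, 50.0% for Hist1h4h, 22.2% for Hist1h4c and 20.4% for Hist1h2be. Hist1h2ap is overlapped on the opposite strand by Gm44466, which is not a member. The counts of Hist1h3e and Hist1h2ap are therefore uncertain.

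The H4 genes also share a promoter sequence, shown here because the H4 genes are summed and compared as a family below. In RefSeq promoters (GRCm38.p6, 250 bases before to 50 after the start), 61 members were matched. The letters GGTCCG, part of the known H4 promoter element, were searched on both strands and were present in 11 of 12 H4 members, in 1 of 16 H2B, in 1 of 10 H3 and in none of 5 H1 and 18 H2A members, against 8.25% of all 32851 promoters. The 120 bases before the start are printed on the coding strand with the matched motifs in capitals. All 3 hold GGTCCG, and Hist1h4d also holds a CCAAT box, which reads on the other strand, and the letters of a TATA box.
Hist1h4d, chr13:23581448-23581567, plus strand: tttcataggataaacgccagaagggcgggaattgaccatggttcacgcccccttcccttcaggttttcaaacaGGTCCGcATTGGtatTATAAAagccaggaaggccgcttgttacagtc
Hist1h4c, chr13:23698459-23698578, minus strand: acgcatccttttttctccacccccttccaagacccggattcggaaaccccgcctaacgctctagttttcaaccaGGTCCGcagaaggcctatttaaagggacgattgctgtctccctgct
Hist1h4i, chr13:22041363-22041482, minus strand: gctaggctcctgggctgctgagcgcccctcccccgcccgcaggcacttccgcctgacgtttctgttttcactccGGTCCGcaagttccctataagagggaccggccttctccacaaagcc

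The match begins 47 bases before the start in Hist1h4d and 46 in Hist1h4c and Hist1h4i. In Hist1h4h the match runs across the RefSeq start, so its stretch is not printed. CCAAT, the box of many histone promoters, was present in 52 of 61 members and 37.4% of all promoters, but in only 3 of the 12 H4 members. TATAAA was present in 34 of 61 members and 13.6% of all promoters. The octamer ATTTGCAT was present in 13 of 61 members, 7 of 18 H2A and 6 of 16 H2B, and in 1.74% of all promoters. These are matches of letters in a window and show neither binding nor use.

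The 4 libraries held 171323466 to 186897245 UMIs over all barcodes and 10194 to 11521 barcodes with at least 1000 UMIs each, and any pair of libraries shared 27 to 35 of these barcodes. Barcodes were clustered without the members, and clusters were called by cell type markers, so that a class such as "microglia-like" rests on other genes. Levels are given as CPM, the UMIs of a gene or list per 1000000 UMIs of all genes in the same class and library. As a check of the labels, Kat6a was at 93.5 and 95.1 CPM in the Control dentate granule-like sums and at 87.5 and 88.3 in the Kat6a-cKO sums, at 62.4 and 66.0 against 59.5 and 64.9 in CA3 pyramidal-like sums, and at 63.8 and 69.5 against 62.7 and 64.3 in CA1 pyramidal-like sums. It was called in none of the 8 classes tested by edgeR's quasi-likelihood test. These counts cover the whole gene, including parts outside the floxed exons, so they do not measure the deletion. The cre entry had no UMI in the Control libraries. In the Kat6a-cKO libraries it had 41 and 56 UMIs in CA3 pyramidal-like nuclei, 57 and 54 in CA1 pyramidal-like, 5 and 6 in dentate granule-like, 0 and 2 in inhibitory-like, 2 and 3 in oligodendrocyte-like, 0 and 1 in astrocyte-like, 0 and 1 in microglia-like and none in OPC-like nuclei (OPC, oligodendrocyte precursor cell). The sums differ in size. As CPM, cre was at 2.25 and 2.78 in CA3 pyramidal-like, 2.33 and 1.77 in CA1 pyramidal-like and 0.143 and 0.187 in dentate granule-like sums. It was at 0 and 0.186 in inhibitory-like, 0.545 and 1.14 in oligodendrocyte-like, 0 and 0.632 in astrocyte-like and 0 and 1.13 in microglia-like sums. Per captured molecule, dentate granule-like sums thus had less cre than oligodendrocyte-like sums, on few UMIs.

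Glia carried more clustered histone RNA per captured molecule than neurons, but not when it was set against the RNA of ribosomal protein genes. The UMIs of all members were summed in each class and library and divided by all UMIs of that class. In the Control libraries the summed level was 337 and 351 CPM in microglia-like nuclei, 243 and 229 in astrocyte-like, 208 and 214 in oligodendrocyte-like and 158 and 177 in OPC-like nuclei. Among neurons it was 131.5 and 130.4 in dentate granule-like nuclei, 90.4 and 77.8 in inhibitory-like, 79.8 and 73.3 in CA1 pyramidal-like and 71.1 and 68.5 in CA3 pyramidal-like nuclei. Immature dentate-like nuclei, a class outside the tests, had 147 and 138, above the dentate granule-like nuclei in both libraries. Only the neighbours inhibitory-like and CA1 pyramidal-like overlapped in this order. Free RNA, estimated from droplets with few UMIs, carried more member RNA than any class, 510 and 474 CPM in the Control libraries. Its estimated share in the Control libraries was 4.68% to 17.1% in the glial sums and 0.842% to 2.79% in the 4 neuronal classes tested. After it was subtracted, microglia-like nuclei had 308 and 333, astrocyte-like 231 and 221, oligodendrocyte-like 185 and 197 and OPC-like 133 and 154, against 126.8 and 125.9 in dentate granule-like nuclei. The glial levels then still lay above those of the 4 neuronal classes tested, with a smaller distance between OPC-like and dentate granule-like nuclei. In immature dentate-like nuclei the estimated share of free RNA was 1.25% and 3.44% in the Control libraries. Their subtracted levels are not given here, nor is their order against OPC-like nuclei after subtraction. The statement on glia and neurons after subtraction therefore does not cover them.

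**Figure D1:**
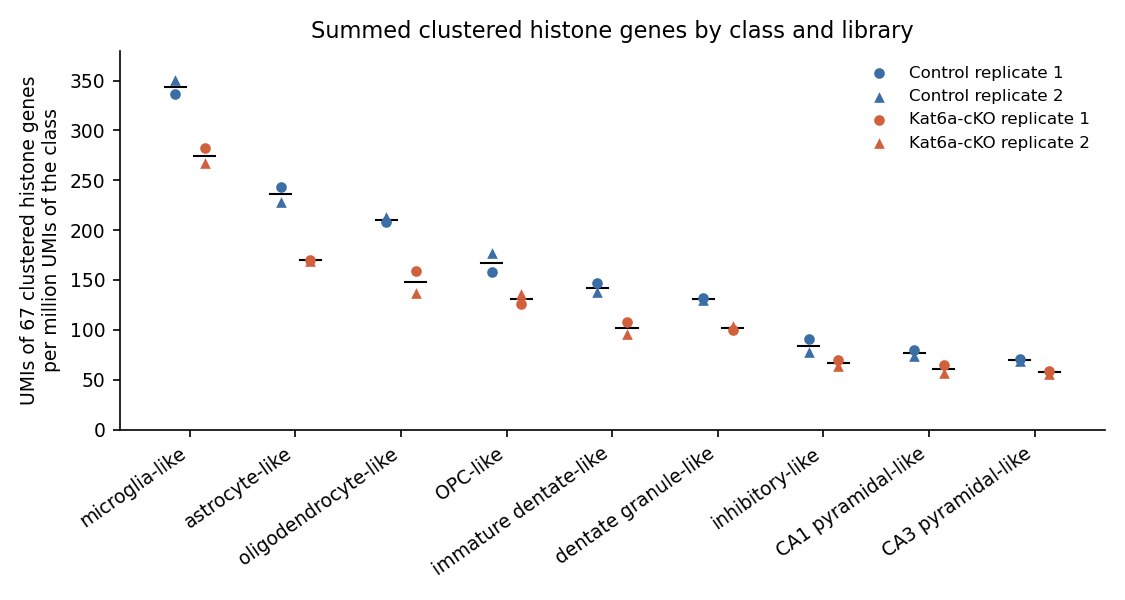
Summed CPM of the 67 clustered histone genes (y axis) in each class (x axis), 1 point per library, with the group in colour and the replicate as marker shape. The microglia-like Control libraries are highest at 337 and 351, and both Kat6a-cKO libraries lie below both Control libraries in each of the 8 tested classes.

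Single members followed the order of the CPM values in part. Hist1h4d was at 45.0 and 36.2 CPM in the Control microglia-like sums, 24.2 and 23.0 in oligodendrocyte-like, 9.66 and 9.19 in dentate granule-like and 3.47 and 3.28 in CA3 pyramidal-like sums. Hist1h2be had 78.8 and 82.4 in microglia-like, 36.2 and 35.7 in dentate granule-like and 24.9 and 23.9 in oligodendrocyte-like sums, so that it was higher in dentate granule-like neurons than in oligodendrocyte-like glia. Hist3h2ba reached 39.0 and 43.6 in oligodendrocyte-like and 34.6 and 43.7 in microglia-like sums, which overlapped.

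The class differences were tested in 1 edgeR quasi-likelihood fit over all class sums of the 4 libraries with library as a block, each class against the mean of the other classes, with Benjamini-Hochberg adjustment over 16830 genes. Of the members, 19 passed the filter on low counts. In microglia-like nuclei 11 of the 19 were higher and 0 lower, where 29.1% of all genes were called higher. In astrocyte-like nuclei 9 were higher and 0 lower (28.8% of all genes higher). In oligodendrocyte-like nuclei 9 were higher and 2 lower (31.6% and 31.4% of all genes), and in OPC-like nuclei 6 and 1 (23.1% and 20.6%). The OPC-like count rested on all 4 libraries. Without Control replicate 1, 4 of 20 members were higher and 0 lower (3523 of 16756 genes higher). Without Control replicate 2, 2 of 19 were higher and 1 lower (3673 of 16884 genes higher). Without Kat6a-cKO replicate 1, 3 of 20 were higher and 1 lower (3209 of 16920 genes higher). Without Kat6a-cKO replicate 2, 4 of 21 were higher and 1 lower (3662 of 17131 genes higher). In none of these runs did the share of higher members exceed that of all genes. With all libraries, the reverse of the glial counts held in 3 neuronal classes. There, 14 of 19 were lower and 0 higher in CA3 pyramidal-like nuclei (33.9% of all genes lower), 14 and 0 in CA1 pyramidal-like (34.4%) and 12 and 0 in inhibitory-like nuclei (32.1%).

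Among the most counted members, Hist1h4d was higher in microglia-like nuclei by a log2 difference of 1.40 ± 0.14 (SE; adjusted p = 2.76e-11 by edgeR's quasi-likelihood test) and lower in CA3 pyramidal-like nuclei by -1.62 ± 0.11 (adjusted p = 7.69e-17 by the same edgeR test). Hist1h4h was highest in oligodendrocyte-like nuclei, at 1.82 ± 0.21, and Hist1h2bc was raised by 1.28 ± 0.10 in microglia-like, 1.22 ± 0.08 in oligodendrocyte-like and 1.12 ± 0.10 in astrocyte-like nuclei. Hist1h1e, a linker histone gene, was raised by 1.49 ± 0.17 in microglia-like nuclei. Free RNA was not subtracted in these class contrasts. In the Control libraries it held Hist1h1e at 64.5 and 54.7 CPM and Hist1h2bc at 120 and 124. Its part in the class differences of single members was not tested. In oligodendrocyte-like nuclei the 2 lower members both encode H2B, Hist1h2be at -0.27 ± 0.08 and Hist2h2be at -1.21 ± 0.36. OPC-like nuclei, the progenitors among these classes, had Hist1h1b at 1.94 ± 0.51 and Hist1h2ap at 1.66 ± 0.52, both named after their values were seen.

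Dentate granule-like nuclei were mixed: 5 of 19 members were higher and 4 lower, where 37.2% of all genes were called higher and 32.1% lower. The higher members were Hist1h4i (log2 difference 1.23 ± 0.12, adjusted p = 2.41e-12 by edgeR's quasi-likelihood test), Hist2h4 (0.89 ± 0.14), Hist1h2be (0.57 ± 0.05), Hist2h2be (0.37 ± 0.14) and Hist3h2ba (0.13 ± 0.06). The lower members were Hist1h1e (-0.85 ± 0.09), Hist1h4c (-0.55 ± 0.17), Hist1h4h (-0.44 ± 0.16) and Hist1h4d (-0.18 ± 0.08). Genes for the same H4 protein therefore fell on both sides in 1 class. With DESeq2's size factors in the same edgeR fit, 3 members were higher and 6 lower in this class. All genes shifted the same way, to 5539 of 16830 higher and 6168 lower. The higher members also numbered 3 of 19 without Control replicate 2 (5946 of 16884 genes higher). Without Kat6a-cKO replicate 1, 3 of 20 were higher and 2 lower (6242 of 16920 genes higher and 4619 lower).

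The genotype values of dentate granule-like nuclei follow as a description. Hist1h4d was at 9.66 and 9.19 CPM in the Control libraries (421 and 358 UMIs) and at 5.10 and 3.93 in the Kat6a-cKO libraries (178 and 126 UMIs), a log2 fold change of -1.05 ± 0.16 (SE). Hist1h4h was at 2.27 and 1.82 against 0.687 and 0.812, a log2 fold change of -1.44 ± 0.25. Hist1h4c was at 1.33 and 1.72 against 1.03 and 0.656, with -0.82 ± 0.28, and from -1.21 without Kat6a-cKO replicate 1 to -0.53 without replicate 2. None of the 3 H4 genes overlapped between groups. The H2A gene Hist1h2ap was at 1.26 and 0.924 against 0.573 and 0.406 (-1.14 ± 0.32), from 55 and 36 against 20 and 13 UMIs. The other counted H4 genes overlapped: Hist1h4i was at 6.08 and 5.13 against 5.30 and 4.15, and Hist2h4 at 3.65 and 3.26 against 3.01 and 3.40. These 2 are the H4 genes that stood higher in dentate granule-like nuclei than in the other classes. The class joins 3 clusters, whose make-up differed between groups. The one led by Ano2, Glis3 and Nek10 held 496 and 494 nuclei in the Control against 929 and 655 in the Kat6a-cKO libraries. The others held 1895 and 1649 against 1281 and 1322, and 1095 and 1100 against 887 and 874. At the finer clustering, one led by Igfbp5, Dsp and C1ql3, with the mitochondrial mt-Rnr2 and mt-Cytb among its leading genes, held 973 and 1200 against 216 and 454. The part of this make-up in the values was not tested.

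The H2B genes with the most UMIs had smaller differences in the same nuclei. Hist1h2bc was at 17.7 and 18.2 against 10.4 and 15.3 (-0.48 ± 0.15), Hist1h2be at 36.2 and 35.7 against 28.5 and 33.1 (-0.21 ± 0.09) and Hist3h2ba at 22.9 and 25.0 against 19.8 and 20.3 (-0.25 ± 0.09). None of these 3 overlapped between groups. With 1 library left out, Hist1h2bc ranged from -0.77 (without Kat6a-cKO replicate 2) to -0.24 (without Kat6a-cKO replicate 1) and Hist1h2be from -0.31 to -0.13 (the same libraries). Hist2h2be, at 2.64 and 2.87 against 2.72 and 2.94, overlapped, as did the linker histone gene Hist1h1c at 13.1 and 10.2 against 10.5 and 7.74 and Hist1h1e at 3.90 and 3.54 against 3.75 and 2.56. Of the 23 members that passed the filter, 22 had a negative log2 fold change (49.3% of all 17344 genes did), 14 lay below without overlap (20.4%), 9 were lower at an unadjusted p of 0.05 (6.64%) and 1, Hist1h4d, passed an adjusted p of 0.05 (0.375% in either direction). At a higher UMI minimum per nucleus Hist1h4d no longer passed, with an adjusted p of 0.0602 by edgeR's quasi-likelihood test. The contrast chose the members, so nothing is read from these counts.

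**Figure D2:**
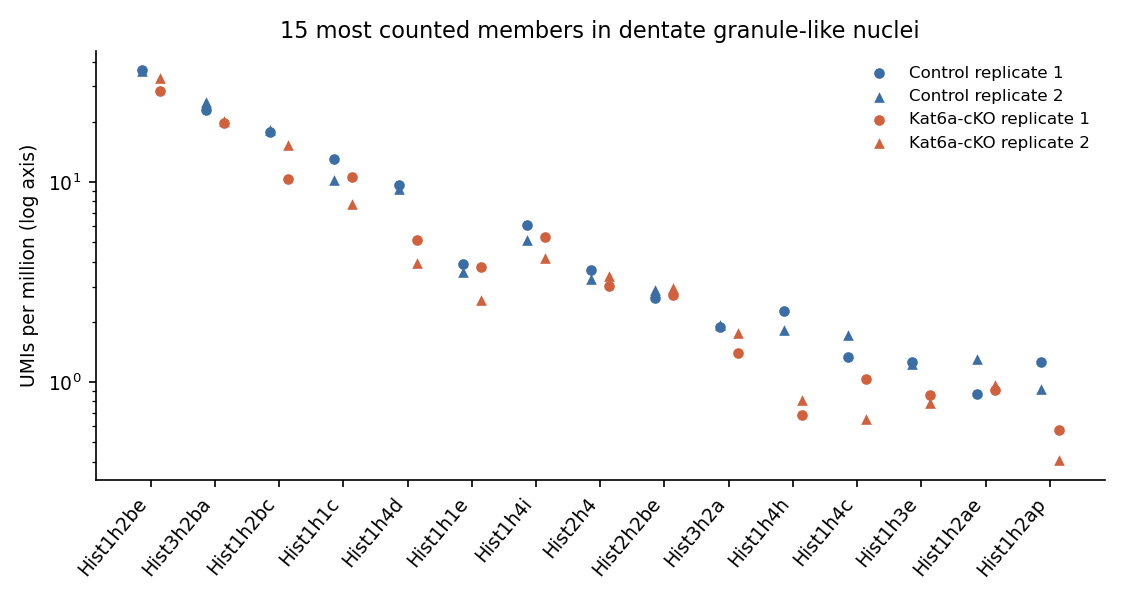
CPM (y axis, log scale) of the 15 most counted members (x axis) in dentate granule-like nuclei, 1 point per library with the group in colour and the replicate as marker shape. Hist1h4h, Hist1h2ap and Hist1h4d have log2 fold changes of -1.44, -1.14 and -1.05, while Hist2h4 and Hist2h2be overlap.

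In the other 7 classes Hist1h4d was lower in both Kat6a-cKO libraries than in both Control libraries, in each class. In CA3 pyramidal-like nuclei, in which the study places its question, it was at 3.47 and 3.28 CPM in the Control and 2.20 and 1.84 in the Kat6a-cKO libraries (log2 fold change -0.73 ± 0.25, adjusted p = 0.436 by edgeR's quasi-likelihood test). In CA1 pyramidal-like nuclei it was at 5.33 and 5.17 against 3.15 and 2.5 (-0.88 ± 0.19, adjusted p = 0.207 by edgeR). In inhibitory-like nuclei, outside the excitatory neurons to which NEX-cre is directed, it was at 6.71 and 4.89 against 3.61 and 3.07 (-0.77 ± 0.26, adjusted p = 0.572 by edgeR). The groups did not overlap in these 3 neuronal classes, and none of the differences passed the test.

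In the glial classes, which had 0 to 3 cre UMIs per library (0 to 1.14 CPM), the values of Hist1h4d also did not overlap between groups. The fold change was smaller in astrocyte-like sums than in the other glia. Hist1h4d was at 24.2 and 23.0 in the Control and 12.8 and 7.98 in the Kat6a-cKO oligodendrocyte-like sums (-1.13 ± 0.26, adjusted p = 0.161 by edgeR), at 45.0 and 36.2 against 15 and 26 in microglia-like (-1.03 ± 0.29, adjusted p = 0.170 by edgeR) and at 19.5 and 16.4 against 7.66 and 9.19 in OPC-like sums (-1.09 ± 0.39, adjusted p = 0.383 by edgeR). In astrocyte-like sums the values were 18.6 and 15.7 against 13.6 and 13.3 (-0.34 ± 0.31, adjusted p = 0.909 by edgeR). With 1 library left out Hist1h4d ranged from -0.47 to -0.15 in astrocyte-like sums (the last without Control replicate 1) and from -1.39 to -0.61 in microglia-like sums (the last without Kat6a-cKO replicate 1). The smallest sums rest on few molecules: in OPC-like nuclei Hist1h4d had 29, 20, 14 and 10 UMIs. Over all nuclei it was at 8.07 and 7.08 against 4.19 and 3.34 (-1.0 ± 0.15, adjusted p = 0.103 by edgeR).

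Hist1h4h and Hist1h4c, other H4 genes of the Hist1 cluster, were lower without overlap in 5 and 6 of the 7 classes other than dentate granule-like. Hist1h4h was at 1.26 and 1.21 against 0.613 and 0.427 in CA1 pyramidal-like sums (-1.24 ± 0.34), at 7.41 and 9.82 against 5.18 and 3.42 in oligodendrocyte-like (-0.93 ± 0.36) and at 1.22 and 0.582 against 0.385 and 0.447 in CA3 pyramidal-like sums (-1.06 ± 0.52), where leaving out the first Control library gave -0.43 and leaving out the second gave -1.56. It overlapped in astrocyte-like and OPC-like sums. Hist1h4c was at 0.877 and 1.05 against 0.572 and 0.394 in CA1 pyramidal-like sums (-0.99 ± 0.36) and at 4.45 and 4.60 against 1.91 and 2.66 in oligodendrocyte-like sums (-0.99 ± 0.45). It overlapped in CA3 pyramidal-like sums, at 0.609 and 1.06 against 0.660 and 0.397. Hist1h4i lay below without overlap in 3 of these 7 classes, among them astrocyte-like sums at 6.36 and 7.05 against 3.02 and 3.16, and Hist2h4 in 2.

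**Figure D3:**
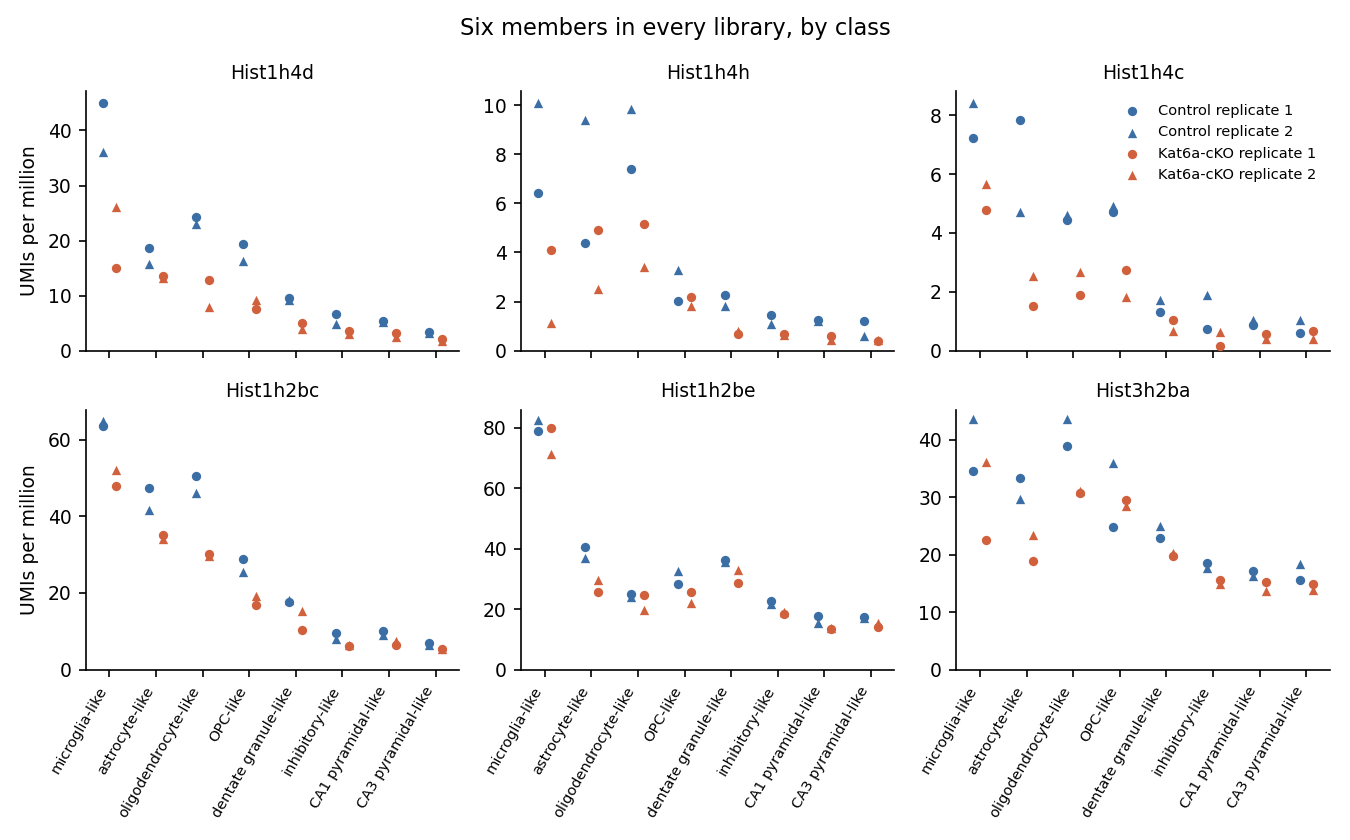
CPM (y axes from 0) of 6 members, 1 panel each, in the 8 tested classes (x axes), 1 point per library with the group in colour and the replicate as marker shape. Hist1h4d and Hist1h2bc are lower in both Kat6a-cKO libraries than in both Control libraries in every class shown.

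Among the H2B genes, Hist1h2bc was lower without overlap in each of the 7 classes other than dentate granule-like, with log2 fold changes from -0.67 to -0.27. It was at 50.4 and 46.0 CPM in the Control and 30.3 and 29.6 in the Kat6a-cKO oligodendrocyte-like sums (-0.67 ± 0.17, adjusted p = 0.161 by edgeR's quasi-likelihood test), and at 6.88 and 6.35 against 5.50 and 5.41 in CA3 pyramidal-like sums (-0.27 ± 0.17, and -0.36 to -0.17 with 1 library left out). Hist1h2be did so in 5 of the 7 classes, with log2 fold changes from -0.48 to -0.05. In microglia-like sums, where it was highest, it overlapped at 78.8 and 82.4 against 79.8 and 71.4. Hist3h2ba did so in 5 of the 7 classes and overlapped in OPC-like sums, at 24.8 and 36.0 against 29.5 and 28.5.

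The linker histone genes and the rest are given over the same 7 classes. Hist1h1c lay below without overlap in astrocyte-like and oligodendrocyte-like sums, above in microglia-like sums (30.5 and 26.9 against 34.8 and 30.6, from 38 and 32 against 51 and 27 UMIs) and overlapped in 4 classes. Hist1h1e lay below in 3 classes, Hist1h3e in 2 and Hist2h2be in 2. Hist3h2a lay below in CA3 pyramidal-like and inhibitory-like sums and above in microglia-like sums, at 4.82 and 4.2 against 6.82 and 5.66, from 6 and 5 against 10 and 5 UMIs. Hist1h2ae lay below in 3 classes and above in oligodendrocyte-like sums, at 1.23 and 0.921 against 1.36 and 1.52, from 5 and 3 against 5 and 4 UMIs.

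**Figure D4:**
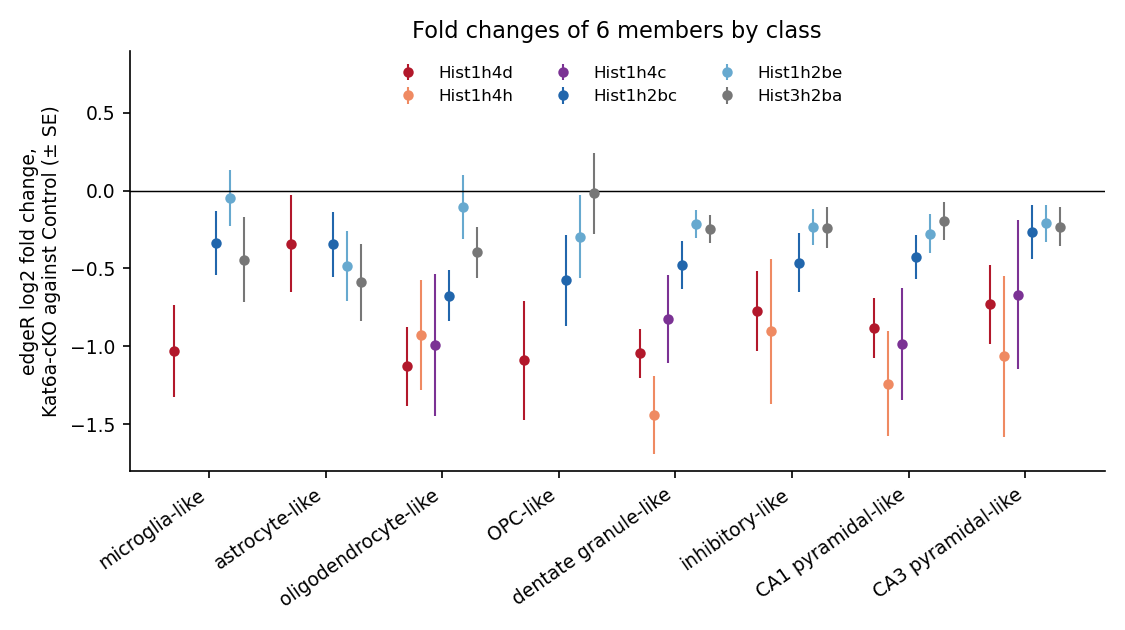
Log2 fold change of Kat6a-cKO against Control by edgeR (y axis, bars are ± 1 SE) for 6 members in the 8 tested classes (x axis), drawn where the member passed the filter on low counts. Hist1h4d, Hist1h4h and Hist1h4c lie at -0.67 or below, except Hist1h4d in astrocyte-like sums at -0.34, and Hist1h2be and Hist3h2ba between -0.59 and -0.02.

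By the test across all genes, no member passed an adjusted p of 0.05 in any of the other 7 classes or in all nuclei together (edgeR's quasi-likelihood test). The share of all genes that passed was 0.0256% in CA3 pyramidal-like, 0.0241% in CA1 pyramidal-like, 0.0% in inhibitory-like, 0.111% in astrocyte-like, 0.00852% in oligodendrocyte-like, 0.264% in OPC-like and 0.0696% in microglia-like sums, and 0.00906% in all nuclei. At an unadjusted p of 0.05 the lower members numbered 1 of 13 in CA3 pyramidal-like (4.91% of all genes), 4 of 17 in CA1 pyramidal-like (5.11%), 2 of 13 in inhibitory-like (4.24%), 2 of 7 in astrocyte-like (4.32%), 5 of 10 in oligodendrocyte-like (5.32%), 1 of 6 in OPC-like (4.49%) and 1 of 6 in microglia-like sums (5.32%). Hist1h4d, one of the genes that chose the members, was tested in each class. Hist1h4h, the other, was also tested in CA3 pyramidal-like, CA1 pyramidal-like, inhibitory-like and oligodendrocyte-like sums. Hist1h4d is the lower member counted in CA3 pyramidal-like, OPC-like and microglia-like sums, so nothing is read from those counts. DESeq2 called 0 members in each of these 7 classes. Of all genes it called 32 of 27191 in CA3 pyramidal-like, 118 of 28204 in CA1 pyramidal-like and 13 of 26649 in inhibitory-like sums. In glia it called 0 of 21900 in astrocyte-like, 11 of 22667 in oligodendrocyte-like, 1 of 20513 in OPC-like and 0 of 20594 in microglia-like sums. In all nuclei the lower members numbered 16 of 38 (6.12% of all genes). DESeq2 called 4 members there, among 405 of 32949 genes. All nuclei include the dentate granule-like nuclei that chose the members, so nothing is read from counts over all nuclei.

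The direction of the differences is given next. All classes come from the same 4 libraries, so their contrasts are not independent, and a shift of a whole library would enter each of them. Members that lay below without overlap numbered 8 of 13 in CA3 pyramidal-like sums (19.8% of all genes tested), 11 of 17 in CA1 pyramidal-like (20.3%), 7 of 13 in inhibitory-like (18.7%), 5 of 7 in astrocyte-like (18.6%), 7 of 10 in oligodendrocyte-like (18.9%), 3 of 6 in OPC-like (19.5%) and 2 of 6 in microglia-like sums (19.5%). In all nuclei they numbered 29 of 38 (20.7%). A negative log2 fold change was found in 12 of the 13 members in CA3 pyramidal-like (50.9% of all genes), 15 of 17 in CA1 pyramidal-like (50.7%), 11 of 13 in inhibitory-like (50.1%), 7 of 7 in astrocyte-like (49.7%), 10 of 10 in oligodendrocyte-like (49.7%), 5 of 6 in OPC-like (50.3%) and 5 of 6 in microglia-like sums (50.3%), and in 38 of 38 in all nuclei (48.6%). The median log2 fold change of the members that passed the filter was -0.33 in CA3 pyramidal-like, -0.43 in CA1 pyramidal-like, -0.36 in inhibitory-like, -0.41 in astrocyte-like, -0.42 in oligodendrocyte-like, -0.22 in OPC-like and -0.26 in microglia-like sums. The median of all genes tested lay between -0.0042 and 0.0058. The members that passed are the abundant ones and do not stand for all 67. In each class they include Hist1h4d, one of the genes that chose the members. Hist1h4h, the other, is also among them in CA3 pyramidal-like, CA1 pyramidal-like, inhibitory-like and oligodendrocyte-like sums. The counts and medians of these classes therefore hold both.

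The sum over all 67 members, which needs no filter, was lower in the Kat6a-cKO libraries, without overlap, in each of the 7 classes other than dentate granule-like. It was 71.1 and 68.5 CPM in the Control against 58.5 and 55.9 in the Kat6a-cKO CA3 pyramidal-like sums, and 79.8 and 73.3 against 64.4 and 56.4 in CA1 pyramidal-like sums. In glia it was 208 and 214 against 159 and 137 in oligodendrocyte-like, 243 and 229 against 169.9 and 169.5 in astrocyte-like, 337 and 351 against 283 and 267 in microglia-like and 158 and 177 against 126 and 136 in OPC-like sums. Inhibitory-like sums had 90.4 and 77.8 against 69.4 and 63.6. Dentate granule-like sums, as a description, had 131.5 and 130.4 against 99.5 and 104.1. Over the other 7 classes the mean was lower by 18.1% (CA3 pyramidal-like) to 29.8% (oligodendrocyte-like), which is -0.51 to -0.29 as log2 of the ratio of means, and by -0.47 to -0.23 without Hist1h4d and Hist1h4h. The sum is not tested, because its members were chosen with results known.

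The families follow, over classes that share the same libraries. The H4 sum lay below without overlap in each of the 7 classes other than dentate granule-like, with log2 ratios from -1.01 in oligodendrocyte-like to -0.52 in inhibitory-like sums. It was 41.7 and 46.0 CPM in the Control against 23.7 and 19.8 in the Kat6a-cKO oligodendrocyte-like sums, 64.3 and 74.0 against 32.1 and 41.9 in microglia-like, 32.2 and 31.1 against 16.4 and 17.5 in OPC-like and 11.1 and 10.4 against 7.42 and 6.85 in CA3 pyramidal-like sums. This rests in part on Hist1h4d and Hist1h4h, the genes that chose the members. Without them, a set added after the values were seen, the H4 sum lay below in 5 of the 7 classes and overlapped in inhibitory-like sums (4.59 and 5.16 against 4.72 and 3.90 CPM) and in microglia-like sums (12.9 and 27.7 against 13.0 and 14.7 CPM, from 16 and 33 against 19 and 13 UMIs). In astrocyte-like sums it was then 21.5 and 21.9 against 8.68 and 10.8 CPM, and in CA3 pyramidal-like sums 6.40 and 6.51 against 4.84 and 4.57. The H2B sum also lay below in 7 of 7 classes, with log2 ratios from -0.45 to -0.25. H2A did so in CA3 pyramidal-like, inhibitory-like and astrocyte-like sums, H3 in CA1 pyramidal-like, OPC-like and microglia-like sums, and H1 in oligodendrocyte-like sums, with overlap in 6. On few UMIs, H3 had larger ratios than H4 in microglia-like sums, at -1.54 (12 and 9 against 7 and 1 UMIs), and in CA1 pyramidal-like sums, at -0.91 (55 and 57 against 31 and 23 UMIs). H2A had a larger ratio than H4 in CA3 pyramidal-like sums, at -0.67 (65 and 74 against 41 and 54 UMIs), and in inhibitory-like sums, at -0.60 (50 and 51 against 37 and 31 UMIs). By cluster, Hist1 lay below in 7 of 7 classes, Hist3 in 5 and Hist2 in 2.

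H4 also took a smaller share of the member UMIs in the Kat6a-cKO libraries, a measure that the total level does not enter. In oligodendrocyte-like sums the share was 20.1% (95% Wilson interval 17.5 to 22.9) and 21.6% (18.7 to 24.8) in the Control and 14.9% (12.3 to 18.0) and 14.4% (11.2 to 18.5) in the Kat6a-cKO libraries. In microglia-like sums it was 19.1% and 21.1% against 11.4% and 15.7%. In CA3 pyramidal-like sums it was 15.6% and 15.1% against 12.7% and 12.3%, and in CA1 pyramidal-like sums 15.2% and 16.1% against 13.4% and 11.2%. The share was lower in the Kat6a-cKO libraries, without overlap, in each of the 7 classes other than dentate granule-like. This too rests on the genes that chose the members: with Hist1h4d and Hist1h4h taken out of the H4 and the member UMIs, the share lay below in 3 classes and overlapped in 4. It lay below in astrocyte-like (9.78% and 10.8% against 5.74% and 7.0%), CA3 pyramidal-like (9.63% and 10.1% against 8.65% and 8.52%) and OPC-like sums (7.88% and 7.29% against 5.63% and 5.15%). It overlapped in CA1 pyramidal-like, inhibitory-like, oligodendrocyte-like and microglia-like sums, in oligodendrocyte-like sums at 5.75% and 7.30% against 4.06% and 6.67%. The intervals cover counting error only.

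**Figure D5:**
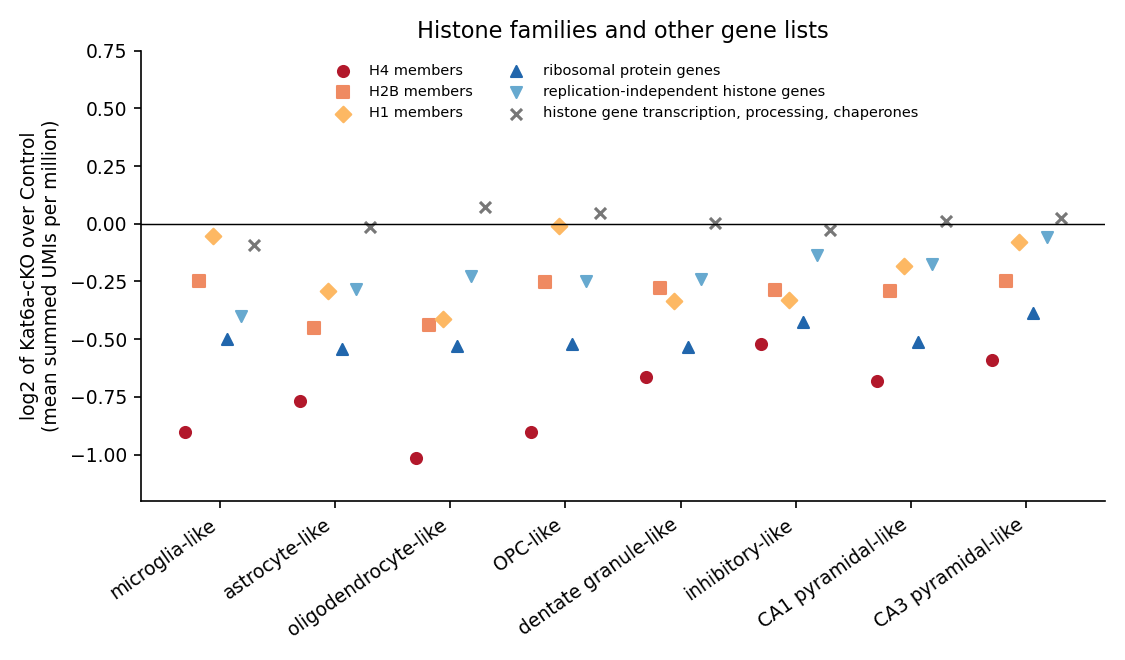
Log2 of the ratio of group means (Kat6a-cKO over Control, y axis) of summed CPM for 3 histone families and 3 other gene lists in the 8 tested classes (x axis), 1 point per class and list, 2 libraries per group. Of the 6 sets drawn, H4 lies lowest in every class, between -1.01 and -0.52. This rests in part on Hist1h4d and Hist1h4h, the genes that chose the members. Without them the H4 ratios run from -1.16 to -0.18 and H4 is not lowest in every class. Those of the ribosomal protein genes run from -0.54 to -0.39. The list of histone gene transcription, processing and chaperones lies near 0.

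Genes around the histone genes were read beside them, in lists chosen with earlier results known. Of 30 genes for histone gene transcription, mRNA 3′ processing and histone chaperones, 29 were found, and none passed an adjusted p of 0.05 in any class by edgeR's quasi-likelihood test or by DESeq2, with 0 to 2 per class at an unadjusted p of 0.05, all of them higher. Their summed level lay below in 2 classes, above in 1 and overlapped in 5, and the median log2 fold change of the list lay between -0.07 and 0.08. Of 15 proliferation genes none passed either test, with 0 to 2 per class at an unadjusted p of 0.05, and their sum lay below in 1 class, above in 1 and overlapped in 6. The 11 replication-independent histone genes, whose mRNAs are polyadenylated, lay below without overlap in 7 of 8 classes by sum and overlapped in CA3 pyramidal-like sums. Their means were lower by 3.85% to 24.2%. None passed the edgeR test, 0 to 5 per class were lower at an unadjusted p of 0.05, and DESeq2 called 1, in dentate granule-like sums.

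The 83 ribosomal protein genes, whose mRNAs are short, polyadenylated and mostly cytoplasmic, were lower as well. Their sum lay below without overlap in 8 of 8 classes, with means lower by 23.6% to 31.3%, and the median log2 fold change of the list was -0.51 to -0.37. By edgeR's quasi-likelihood test 24 of 81 fell in dentate granule-like sums, 6 of 68 in OPC-like, 5 of 71 in astrocyte-like and 1 each in CA1 pyramidal-like, oligodendrocyte-like and microglia-like sums, and 0 in CA3 pyramidal-like and inhibitory-like sums. In these last 2 classes 43 and 45 of 80 were lower at an unadjusted p of 0.05. DESeq2 called 45 in dentate granule-like, 21 in CA1 pyramidal-like, 3 each in CA3 pyramidal-like, inhibitory-like and oligodendrocyte-like, and 0 in astrocyte-like, OPC-like and microglia-like sums. Rpl34 fell in oligodendrocyte-like sums from 93.1 and 90.6 to 29.4 and 41.4 CPM (log2 fold change -1.38 ± 0.16, adjusted p = 0.00447 by edgeR). The 13 mitochondrial mRNAs lay below in 6 of 8 classes by sum and overlapped in astrocyte-like and microglia-like sums. None passed the edgeR test, 0 to 8 per class were lower at an unadjusted p of 0.05, and DESeq2 called 1 in dentate granule-like, 1 in CA1 pyramidal-like and 2 in inhibitory-like sums. The part of these cytoplasmic RNAs in the histone result was not tested.

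Set against the ribosomal protein genes, the sign of the members' difference turned. Per 1000 ribosomal protein UMIs, a measure chosen after the values were seen, the log2 ratio of group means over the 7 classes other than dentate granule-like was 0.013 to 0.18 for the summed members, 0.082 to 0.27 for H2B and 0.089 to 0.51 for H1, and -0.49 to -0.10 for H4. The summed members were above without overlap in the Kat6a-cKO libraries in 2 of these classes (OPC-like and microglia-like) and overlapped in 5. H2B was above in 5 and overlapped in 2. H4 was below in 5 (CA3 pyramidal-like, astrocyte-like, oligodendrocyte-like, OPC-like and microglia-like) and overlapped in 2, and H1 was above in 1 and overlapped in 6. Without Hist1h4d and Hist1h4h, H4 was below in 2 of the 7 classes (astrocyte-like and OPC-like), above in inhibitory-like sums and overlapped in 4 on this scale.

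Several other measures moved with the groups, and their part in the histone result was not tested. The median number of UMIs per nucleus was lower in both Kat6a-cKO libraries than in both Control libraries in 7 of the 8 classes, for example 3692.5 and 3439 against 3111 and 3162 in oligodendrocyte-like and 27745.5 and 25152 against 22843 and 24137 in CA3 pyramidal-like nuclei. In CA1 pyramidal-like nuclei it overlapped. An unnamed cluster of barcodes with few UMIs, led by Ttr, Tmsb4x and Pcp4, held 663 and 953 barcodes in the Control and 132 and 165 in the Kat6a-cKO libraries. The estimated share of free RNA was lower in the Kat6a-cKO libraries, without overlap, in 4 classes. It was 1.69% and 1.46% against 1.06% and 1.14% in CA3 pyramidal-like, 4.90% and 4.68% against 3.76% and 1.59% in astrocyte-like, 7.20% and 7.15% against 5.83% and 6.26% in oligodendrocyte-like and 7.01% and 8.48% against 6.10% and 1.09% in OPC-like sums. It overlapped in the other 4, at 1.19% and 1.26% against 1.22% and 0.733% in dentate granule-like and 17.1% and 13.9% against 15.6% and 14.5% in microglia-like sums. After it was subtracted, the summed members still lay below in each of the 7 classes other than dentate granule-like.

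Free RNA itself was measured in droplets with 10 to 100 UMIs. There the summed members were at 510 and 474 CPM in the Control and 490 and 468 in the Kat6a-cKO libraries, the H4 genes at 70.9 and 66.9 against 72.6 and 69.1 and Hist1h4d at 41.3 and 35.8 against 42.4 and 39.5. The groups overlapped in these droplets for the sum of the members, the H4 sum and Hist1h4d, but not for every member. Hist1h2be was lower in the Kat6a-cKO libraries, at 26.2 and 25.0 against 18.0 and 19.5, and Hist1h4c at 4.65 and 2.70 against 2.16 and 1.88 (8 and 4 against 3 and 3 UMIs). Hist1h2bc was higher, at 120 and 124 against 131 and 139, as was Hist1h4i at 5.81 and 7.43 against 14.4 and 13.2. Ribosomal protein genes in these droplets were lower in both Kat6a-cKO libraries, at 29489 and 25854 against 25766 and 22426 CPM, and the part of this in the results was not tested.

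Markers of other cell types were present in every class, some at high levels. The CA1 pyramidal list was at 6084 and 5822 CPM in the Control inhibitory-like sums, against 9634 and 8887 in CA1 pyramidal-like sums. The summed markers of another class were lower without overlap in the Kat6a-cKO libraries in 14 of 96 combinations of list and class, higher in 22 and overlapped in 60. None of the 8 microglial and 8 oligodendrocyte markers was at 0. Microglial markers, which were at 6842 to 7535 CPM in microglia-like sums, were at 182 and 210 in the Control against 152 and 158 in the Kat6a-cKO dentate granule-like sums, 89.6 and 112 against 79.6 and 88.7 in CA3 pyramidal-like, 109 and 138 against 104 and 106 in CA1 pyramidal-like and 426 and 439 against 390 and 347 in astrocyte-like sums. They overlapped in inhibitory-like, oligodendrocyte-like and OPC-like sums. Oligodendrocyte markers were at 97.7 and 95.9 against 87.2 and 78.2 in CA1 pyramidal-like, 115 and 125 against 85.8 and 84.6 in inhibitory-like 265 and 315 against 223 and 188 in astrocyte-like, 247 and 232 against 190.4 and 182 in OPC-like and 394 and 386 against 355 and 323 in microglia-like sums. They overlapped in CA3 pyramidal-like sums. They were above in dentate granule-like sums, at 407 and 405 against 417 and 411. OPC markers were above in 5 classes, at 602 and 642 against 778 and 719 in CA3 pyramidal-like, 620 and 728 against 1087 and 878 in CA1 pyramidal-like and 422 and 440.2 against 508 and 570 in oligodendrocyte-like sums, and in dentate granule-like and astrocyte-like sums. Astrocyte markers were above in 4, among them dentate granule-like sums at 1502 and 1500 against 1594 and 1647. The CA1 pyramidal list itself was lower in the Kat6a-cKO CA1 pyramidal-like sums, at 7995 and 8170. Microglia-like and oligodendrocyte-like nuclei are among the 3 classes with the highest member levels, and the part of all these markers' cells in the histone values was not tested.

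The difference was also seen as a share of nuclei. To compare nuclei of unequal depth, each was thinned to 5000 UMIs in neurons and 1000 in glia. The share of nuclei with at least 1 member UMI was then 47.6% and 47.0% in the Control against 38.2% and 39.9% in the Kat6a-cKO dentate granule-like nuclei, 30.3% and 29.1% against 25.6% and 24.4% in CA3 pyramidal-like, 19.4% and 19.3% against 14.5% and 13.3% in oligodendrocyte-like and 28.4% and 29.7% against 24.8% and 23.5% in microglia-like nuclei. The groups did not overlap in any of the 7 classes other than dentate granule-like, where free RNA alone would give 0.507% to 8.34%. A 2-sided exact permutation test of 2 against 2 libraries cannot go below p = 0.33. Unthinned, the share was 77.0% and 75.2% against 63.2% and 66.4% in dentate granule-like nuclei. No nucleus had more than 14 member UMIs, so the members' RNA was spread over many nuclei. Fewer nuclei with these RNAs and fewer molecules per nucleus cannot be told apart at this depth.

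CA3 pyramidal-like and CA1 pyramidal-like nuclei did not differ detectably in the genotype contrast of any member. In the edgeR fit with a class by genotype term, 0 of 17 members passed an adjusted p of 0.05, where 10 of 16868 genes (0.0593%) did, and 0 passed an unadjusted p of 0.05. The difference of the Hist1h4d fold changes, CA3 minus CA1, was 0.14 ± 0.25 (SE) on the log2 scale.

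The genes whose level followed that of the summed members most closely over the 32 sums (8 classes in 4 libraries) were mostly ribosomal protein genes. Of 11025 other genes compared, Rpl37a, Rpl22, Rpl26 and Rpl35a had a Pearson r of 0.982 each on the log2 scale, and Zc3h7a had 0.981. The sums of a library share its depth and free RNA, so these values are a description.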

How the data were processed

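Nuclei of 4 hippocampal libraries were captured, per the labels, with a 10x Genomics Chromium kit. The authors deposited raw UMI counts per gene and barcode for all barcodes, empty droplets included. Seurat 4.0.1 and mm10 are named in the submitters' processing notes, while the aligner, annotation, counting strand and treatment of reads that match several genes are not given in the sources used here. Gene symbols were matched through GENCODE M21 by gene ID (55154 of 55422 matched).

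From these counts, barcodes with at least 1000 UMIs were scored for doublets with Scrublet (expected rate 0.06), which removed 350 to 550 per library. The rest were clustered with scanpy 1.11.5 and leidenalg 0.10.2 (2000 variable genes, 30 components, 15 neighbours, resolution 1) without the members, the listed genes, Kat6a and ribosomal and mitochondrial genes. A cluster was named when at least 50% of a class's markers, and at least 3, were raised 2-fold. It stayed unnamed when a second class did so too, or when fewer than 60% were raised with none among its 10 leading genes, a threshold set after the data were seen. Unnamed clusters enter only the sums over all nuclei, and no cluster was named endothelial. UMIs were summed per library and class over barcodes with at least 5000 UMIs (1000 in glia), 220 to 3427 nuclei per tested sum, and tested with edgeR 4.0.16 in R 4.3.3 (TMM, filterByExpr, quasi-likelihood, Benjamini-Hochberg over all genes tested), after the code had been tested on simulated data. The precision is limited by 2 libraries per group and by the UMIs counted per sum.

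The members and gene lists were chosen with earlier results of these data known. Named are the 15 most counted members, which include Hist1h4h and Hist1h4d, and the 5 most similar genes. Hist1h1b was named after its value was seen, and Rpl34 stands for the called members of the other lists. The alternatives were DESeq2 1.42.0 and its size factors, no filter on low counts, a higher UMI minimum, doublets kept, a finer clustering, subtraction of free RNA, a replicate block, unthinned shares, leaving out each library and, added after the data were seen, leaving Hist1h4d and Hist1h4h out of the sums.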

Additional observations from a re-analysis of the deposited data

Results flagged for a closer look

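Of the 15 named members, 3 lay above the Control libraries in 1 class while others of their comparisons lay below. The share of all genes that lay above is not given here, and 18.6% to 20.4% lay below per class. Nothing is therefore read from this count. In each case both Kat6a-cKO libraries lay above both Control libraries in 1 class and below both in another. The difference between the classes was not tested. Hist1h1c, a linker histone gene, averaged 32.7 CPM in the Kat6a-cKO microglia-like sums (34.8 and 30.6, against 30.5 and 26.9 in the Control, from 51 and 27 against 38 and 32 UMIs), and lay below in astrocyte-like and oligodendrocyte-like sums. Hist3h2a, an H2A gene, averaged 6.24 in the Kat6a-cKO microglia-like sums (6.82 and 5.66, against 4.82 and 4.2, from 10 and 5 against 6 and 5 UMIs) and lay below in CA3 pyramidal-like and inhibitory-like sums. Hist1h2ae, another H2A gene, averaged 1.44 in the Kat6a-cKO oligodendrocyte-like sums (1.36 and 1.52, against 1.23 and 0.921, from 5 and 4 against 5 and 3 UMIs) and lay below in CA3 pyramidal-like, astrocyte-like and OPC-like sums.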

How the results depend on the processing

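Of the values given for whole comparisons, 379 stayed on their side under an alternative and 91 moved. Of the values of single members, 553 stayed, 25 newly passed the threshold, 1 no longer did and 9 changed sign. The number of members past an adjusted p of 0.05 in dentate granule-like sums went from 1 to 4 without a filter on low counts, 2 at the finer clustering and 0 at the higher UMI minimum, where Hist1h4d had an adjusted p of 0.0602 by edgeR. Over all genes the calls went from 65 of 17344 to 512 of 28900, 93 of 17314 and 56 of 16599 at these settings. Without a filter the number of members went from 0 to 2 in CA1 pyramidal-like and to 2 in oligodendrocyte-like sums, and DESeq2 called 4 in all nuclei. Over all genes the calls without a filter were 497 of 28204 in CA1 pyramidal-like and 127 of 22667 in oligodendrocyte-like sums. With the filter they were 4 of 16610 and 1 of 11738. DESeq2 called 405 of 32949 genes in all nuclei. The same replicate numbers pair the libraries only by name (correlation of deviations 0.0243 to 0.350, over 2 pairs). With the replicate block the count was 2 in dentate granule-like, 1 in CA1 pyramidal-like and 2 in oligodendrocyte-like sums. It was 1 in microglia-like sums and 4 in all nuclei. The calls over all genes rose too with this block. They went from 65 to 341 of 17344 in dentate granule-like and from 4 to 283 of 16610 in CA1 pyramidal-like sums. In microglia-like sums they went from 7 to 102 of 10053, and in all nuclei from 2 to 630 of 22077. They also rose in oligodendrocyte-like sums, from 1 of 11738. Nothing is therefore read from the members' counts with the block. With 1 library left out, an arm held a lone library that was assumed to vary like the other group, so only its effect sizes are given.

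The median of the members' log2 fold changes moved to -0.30 in dentate granule-like, -0.55 in CA1 pyramidal-like, -0.68 in oligodendrocyte-like and -0.40 in microglia-like sums after free RNA was subtracted, to -0.33 in microglia-like sums at the higher UMI minimum, and in astrocyte-like sums to -0.33 with doublets kept and -0.50 at the finer clustering. With 1 library left out it ranged from -0.47 to -0.39 in dentate granule-like, -0.37 to -0.20 in CA3 pyramidal-like, -0.77 to -0.24 in CA1 pyramidal-like, -0.51 to -0.14 in inhibitory-like, -0.57 to -0.19 in astrocyte-like, -0.74 to -0.42 in oligodendrocyte-like, -0.38 to -0.13 in OPC-like and -0.31 to -0.17 in microglia-like sums, and -0.72 to -0.42 in all nuclei. The log2 ratio of the summed members moved to -0.39 in astrocyte-like sums with doublets kept, and in microglia-like sums to -0.39 at the higher UMI minimum and -0.40 without free RNA. That of H4 moved to -0.61 (doublets kept) and -0.70 (finer clustering) in astrocyte-like, -0.95 (doublets kept) in OPC-like and -1.13 (free RNA subtracted) in microglia-like sums. With Hist1h4d and Hist1h4h left out, chosen after seeing the data, the summed ratio moved to -0.31 in dentate granule-like and -0.23 in microglia-like sums. That of H4 moved to -0.33 in dentate granule-like, -0.46 in CA3 pyramidal-like, -0.41 in CA1 pyramidal-like, -0.18 in inhibitory-like, -1.16 in astrocyte-like, -0.73 in oligodendrocyte-like, -0.77 in OPC-like and -0.55 in microglia-like sums. With 1 library left out, the summed ratio ranged from -0.52 to -0.43 in astrocyte-like, -0.62 to -0.41 in oligodendrocyte-like, -0.44 to -0.25 in CA1 pyramidal-like and -0.44 to -0.23 in inhibitory-like sums, and that of H4 from -0.92 to -0.48 in CA1 pyramidal-like sums.

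In the class contrast, dentate granule-like nuclei had 3 of 19 members higher with DESeq2's size factors, where 5539 of 16830 genes were higher. Without a filter 8 of 59 members were higher and 2 lower, where 8359 of 32335 genes were higher and 4429 lower. With 1 library left out, dentate granule-like nuclei had 3 to 4 members higher and 2 to 4 lower, and OPC-like nuclei 2 to 4 higher and 0 to 1 lower. These runs tested 19 to 21 members and 16756 to 17131 genes. Of all genes, 5946 to 6242 were then higher in dentate granule-like and 3209 to 3673 in OPC-like nuclei. Unthinned, the difference in the share of nuclei was -11.3 percentage points in dentate granule-like, -9.64 in CA3 pyramidal-like, -11.2 in CA1 pyramidal-like, -12.2 in inhibitory-like, -12.8 in astrocyte-like, -16.8 in oligodendrocyte-like, -11.6 in OPC-like and -14.4 in microglia-like nuclei, and thinned with doublets kept -4.80 in astrocyte-like nuclei. Single members that changed sign were Hist3h2ba in OPC-like sums (0.0024 with the replicate block, 0.0031 with doublets kept, -0.26 to 0.25 with 1 library left out) and, with 1 library left out, Hist1h1e (-0.55 to 0.034), Hist2h4 (-0.20 to 0.0031) and Hist1h2ae (-0.44 to 0.096) in dentate granule-like sums and Hist1h2be in oligodendrocyte-like (-0.32 to 0.061) and microglia-like sums (-0.14 to 0.031). The cause of these moves was not tested. With 2 libraries per group and few UMIs per member in glia, depth and replicate number limit what could be called.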
